A study of Arabidopsis thaliana with 12 samples.

Results

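Cassette exons longer than 51 bases whose length is not a multiple of 3 were examined in seedlings of 2 natural accessions of Arabidopsis thaliana, Col-0 and Kn-0. They were taken from the skipped exon tables of each accession by exon length alone, with 1 entry per gene, exon and pair of flanking splice sites and with an inclusion level in every library. The rule gave 9595 of 18295 skipped exons in Col-0 (52.4%), in 3826 genes, and 10347 of 19809 in Kn-0 (52.2%), in 4006 genes. Many entries share an exon end or a flanking junction, and so share reads.

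The plants were whole seedlings, 4 days old and raised on filter paper in constant light. Transfer for 3 h was either to plain control medium, called mock, or to medium holding 5 µM abscisic acid (ABA), the hormone of drought and seed dormancy responses. Each accession and treatment had 3 libraries of polyadenylated RNA, 12 in all. No mutation or transgene is given for either accession. The inclusion level of an exon is the share of its junction reads, corrected for the number of positions at which a read can fall, that join the exon to its neighbours and do not skip it. The junction reads over all skipped exons numbered 14484572 to 15555643 per Col-0 library and 17874981 to 18637862 per Kn-0 library, of which the exons described here took 7047389 to 7575155 and 9242247 to 9600092. The shoot markers RBCS1A and LHCB2.1 and the root markers PLT1 and IRT1 were all detected in both accessions, PLT1 at the lowest mean, 162.9 normalized counts in Col-0 in the authors' deposited table.

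Translation reads codons of 3 bases, so adding or removing an exon of any other length inside a coding sequence shifts the reading frame after it and usually brings a stop codon early. In plants, transcripts with such a stop far ahead of the last exon junction are targets of nonsense-mediated decay, and genes of SR splicing factors are known to use these exons to limit their own transcripts. In an untranslated leader the same exon leaves the protein as it is and changes only the leader.

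The sequences of 3 Col-0 exons that lie inside coding sequence make the effect on the frame visible. They were read from the RefSeq TAIR10.1 genome on the strand of the gene, with the exon in capitals and 20 intron bases in lower case on each side.
AT1G18390, 104-base exon, chr1:6328116-6328219, plus strand: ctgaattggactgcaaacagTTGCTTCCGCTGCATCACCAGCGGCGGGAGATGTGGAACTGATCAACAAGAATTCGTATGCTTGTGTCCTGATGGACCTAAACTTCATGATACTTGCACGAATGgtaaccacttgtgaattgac
AT1G78780, 134-base exon, chr1:29622303-29622436, minus strand: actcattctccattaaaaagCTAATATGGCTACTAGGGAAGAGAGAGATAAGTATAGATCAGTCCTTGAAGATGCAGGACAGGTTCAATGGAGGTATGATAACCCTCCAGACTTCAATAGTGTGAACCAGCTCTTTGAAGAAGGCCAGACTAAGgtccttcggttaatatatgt
SR30, 127-base exon, chr1:2943438-2943564, minus strand: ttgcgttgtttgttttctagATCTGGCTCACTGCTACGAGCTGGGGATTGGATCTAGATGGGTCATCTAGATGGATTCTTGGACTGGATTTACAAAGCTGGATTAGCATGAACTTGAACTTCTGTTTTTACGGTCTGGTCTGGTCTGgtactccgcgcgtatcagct
Each exon lies between an intron ending in ag and one starting with gt. All 3 are skipped in the annotated transcript, and none is annotated as included between these neighbours. In SR30, an SR protein of RNA splicing, the frame meets the stop codon TAG at bases 35 to 37 of the exon, and the frame falls from 268 to 256 codons. In AT1G78780 the stop is TGA at bases 103 to 105, with 91 codons in place of 252. That frame is followed from the start codon of the annotated transcript without the exon, although Col-0 mock inclusion was 0.947, 1.0 and 0.842. Other start codons were not followed. The AT1G18390 exon holds no stop in the frame that enters it after 249 codons, but it shifts that frame, which then ends at 292 codons and not at 648.

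Exons of the untranslated leader or at the start codon are shown by their splice sites alone, as the last 20 intron and first 3 exon bases of the acceptor and the last 3 exon and first 6 intron bases of the donor, again with the exon in capitals.
RGLG1, 58-base exon, chr3:242521-242578, plus strand, acceptor: ttgctctctctcacccctagGTT
RGLG1, 58-base exon, donor: TAGgtaatt
LPP3, 58-base exon, chr3:551527-551584, plus strand, acceptor: ctaactttggggctttaaagTGA
LPP3, 52-base exon, chr3:551533-551584, plus strand, acceptor: ttggggctttaaagtgatagGAT
LPP3, donor of both exons: CAGgtttgt
KAT5, 107-base exon, chr5:19816923-19817029, minus strand, acceptor: aacacaagtgtttgcaacagAGA
KAT5, 199-base exon, chr5:19816923-19817121, minus strand, acceptor: taacgtcttcccctttccagAAA
KAT5, 322-base exon, chr5:19816923-19817244, minus strand, acceptor: tacaaatacgacaagacaagGTT
KAT5, donor of the 3 exons: TCTgtaagt
PAT1, 80-base exon, chr5:19524309-19524388, minus strand, acceptor: ttatgacatgataatattagGTC
PAT1, 80-base exon, donor: AAGgtatga
The LPP3 pair ends at 1 donor and starts at acceptors 6 bases apart, and the 3 KAT5 exons share their donor and differ only in the acceptor. Every acceptor above ends in ag and every donor starts in gt. No coordinates or sequences are given for Kn-0, whose table uses other coordinates.

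Most of these exons were either nearly always kept or nearly always skipped. In Col-0, 4774 of 9595 (49.8%) had a mean inclusion level above 0.98, 2036 (21.2%) lay below 0.02, and 2785 (29.0%) lay between. Their length ran from 52 to 3733 bases with a median of 107, and 4936 left a remainder of 2 bases and 4659 a remainder of 1 on division by 3. By TAIR10.1 coordinates 8802 exons (91.7%) stood between AG and GT and another 257 (2.7%) between AG and GC. The annotation placed 7103 in coding sequence, 1267 in the 5′ untranslated leader, 746 across or beside the start codon, 181 in the 3′ untranslated region, 116 at the stop codon and 182 in noncoding transcripts. Of the 7103, 3376 were placed by position alone, as no annotated transcript held either arrangement of their junctions.

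Inclusion followed the annotation closely. The 2199 exons whose annotated transcripts only include them had a median inclusion level of 0.9975, and the 2989 whose annotated transcripts only skip them had a median of 0.0067. The 317 exons annotated both ways had a median of 0.41 with quartiles of 0.0955 and 0.8665, while the 214 such exons of length divisible by 3 had 0.63. For the remaining 4090, no annotated transcript held either arrangement of the junctions, and no reading frame was worked out.

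Reading the frame of annotated transcripts in Col-0 separated the exons by direction. Removing an exon annotated as included gave a stop more than 50 bases ahead of the last junction for 1442 of 1727 coding exons (83.5%), against 2.6% of coding exons of length divisible by 3. Adding an exon annotated as skipped gave such a stop for 1785 of 1941 (92.0%), and in 1679 (86.5%) the stop lay inside the exon itself. Exons divisible by 3 were not free of this: 79.7% of those annotated as skipped gave an early stop when added. These shares describe sequence and annotation, and carry no test.

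**Figure D1:**
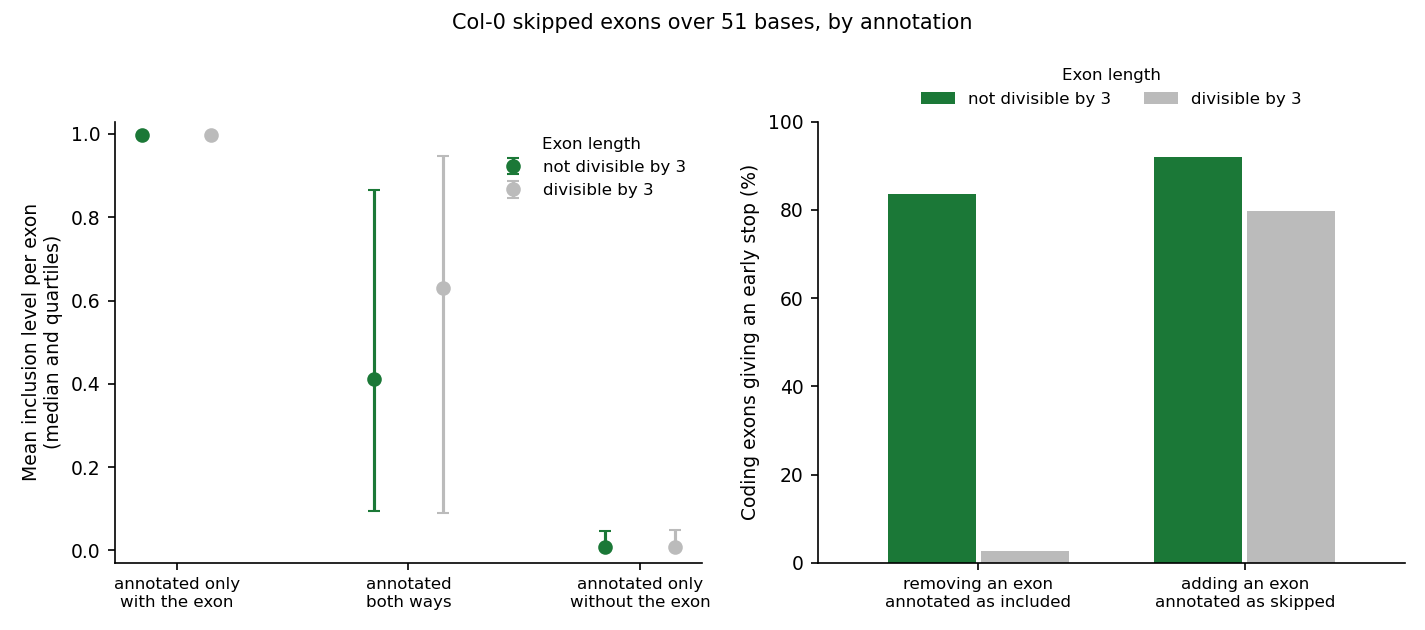
Left: inclusion level of Col-0 skipped exons over 51 bases by what the annotation holds, as the median over exons (point) with quartiles (bar), for lengths not divisible by 3 (green) and divisible by 3 (grey). Right: percentage of coding exons that give an early stop when removed from or added to the annotated transcript. Removal gave one for 83.5% of exons not divisible by 3 and 2.6% of the others, and addition for 92.0% and 79.7%.

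ABA changed the inclusion of a handful of these exons. A test needs exons that vary and are covered, so it was run where each library had 10 or more junction reads and the mean inclusion level lay between 0.02 and 0.98, which left 1952 exons of 958 genes in Col-0 and 1942 of 960 genes in Kn-0. An exon was called at an adjusted p under 0.05 with a difference of at least 0.1 in mean inclusion level. In Col-0, 7 were called, 5 higher under ABA and 2 lower, beside 0.22% of all 3642 skipped exons tested (0.137% higher and 0.0824% lower). In Kn-0, 6 were called, 4 higher and 2 lower, beside 0.221% of 3620 (0.138% higher and 0.0829% lower). The 7 exons belong to 4 genes and the 6 to 5 genes, and RGLG1, KAT5, AT1G18390 and LPP3 had a called exon in both accessions. Over all tested exons the median absolute difference was 0.0198 in Col-0, and 108 had an unadjusted p under 0.05 there and 151 in Kn-0, beside 5.35% of all skipped exons tested in Col-0, against 6.74% for Kn-0.

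RGLG1 encodes a ubiquitin ligase that acts on the ABA signalling phosphatase PP2CA. Its 58-base leader exon had inclusion levels of 0.067, 0.092 and 0.018 in the Col-0 mock libraries and 0.321, 0.337 and 0.281 under ABA. The groups were far apart, at 0.059 ± 0.038 and 0.313 ± 0.029 (SD, n = 3 each), a rise of 0.254 (adjusted p = 5.9e-08). Reads that join the exon numbered 13, 15 and 2 in mock and 59, 70 and 62 under ABA, while reads that skip it numbered 123, 101 and 76 against 85, 94 and 108. In Kn-0 the exon of the same length had levels of 0.127, 0.257 and 0.204 in mock and 0.439, 0.470 and 0.463 under ABA. This was a rise of 0.261 (adjusted p = 1.2e-05), again with no overlap, and from a higher mock level than in Col-0. In the authors' deposited table the transcript as a whole rose by 0.74 ± 0.07 (SE) on the log2 scale for Col-0, against 0.89 ± 0.06 for Kn-0. With or without the exon the annotated protein has 489 codons.

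KAT5 encodes a 3-ketoacyl-CoA thiolase of fatty acid β-oxidation that is made in a peroxisomal and a cytosolic form from different starts of its transcript. The 199-base exon had levels of 0.325, 0.316 and 0.361 in Col-0 mock and 0.504, 0.497 and 0.537 under ABA. Means were 0.334 ± 0.024 and 0.513 ± 0.021 (SD, n = 3), a rise of 0.179 (adjusted p = 5.6e-07). The 107-base and 322-base exons, with the same donor and the same skipping reads, rose by 0.174 and 0.183, so the 3 are not independent. Skipping reads went from 258, 260 and 156 in mock to 88, 110 and 106 under ABA, while reads that join the 199-base exon went from 249, 240 and 176 to 179, 217 and 246. The annotated form that holds the 107-base or the 199-base exon starts translation there and has 457 codons, and the form without them has 414. In Kn-0 the levels of the 199-base exon were 0.496, 0.476 and 0.419 in mock and 0.714, 0.558 and 0.585 under ABA, with no overlap between groups and a rise of 0.155 (adjusted p = 0.00017). The first listed ABA library stood above the others: without it the rise was 0.108 with an adjusted p of 0.2, and 0.102 with the same p for the 107-base exon. Allowing the spread of the exon itself to replace the common one gave an adjusted p of 0.41 for the Kn-0 rise, in a range of 5.2e-05 to 0.41 over both other ways of estimating the spread. In the authors' deposited table the change of the whole KAT5 transcript was -0.23 in Col-0 (adjusted p = 0.21) and 0.12 in Kn-0 (adjusted p = 0.14) on the log2 scale.

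The 104-base coding exon of AT1G18390, whose inclusion shortens the frame as shown above, had levels of 0.121, 0.144 and 0.130 in Col-0 mock and 0.583, 0.228 and 0.392 under ABA. The ABA libraries were widely spread, at 0.401 ± 0.178 against 0.132 ± 0.012 (SD, n = 3), and the rise of 0.269 had an adjusted p of 0.021. Reads that join the exon were 17 in each mock library and 18, 13 and 19 under ABA. Skipping reads fell from 67, 55 and 62 to 7, 24 and 16, and the gene as a whole fell by 0.97 on the log2 scale in the authors' deposited table (adjusted p = 8.3e-20). Leaving out any one library other than the second ABA library lost the call, at an adjusted p of 0.057 to 0.46, and both other ways of estimating the spread lost it, at 0.08 and 0.13. In Kn-0 the levels were 0.066, 0.139 and 0.091 in mock and 0.309, 0.287 and 0.192 under ABA, a rise of 0.164 (adjusted p = 0.025). That call was lost without mock library 1 or 3 or ABA library 1 or 2, at adjusted p from 0.18 to 0.25.

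LPP3 encodes a lipid phosphate phosphatase, and its 2 leader exons moved the other way. The 58-base exon between introns of 326 and 1346 bases had levels of 0.590, 0.567 and 0.678 in Col-0 mock and 0.310, 0.396 and 0.393 under ABA. It fell by 0.245, from 0.612 ± 0.059 to 0.366 ± 0.049 (SD, n = 3; adjusted p = 0.002), and the 52-base exon with the later acceptor fell by 0.231 (adjusted p = 0.012). Skipping reads, which the pair shares, went from 35, 39 and 31 to 53, 56 and 60. Reads that join the 58-base exon went from 74, 75 and 96 to 35, 54 and 57. The same exon with its other downstream junctions, after introns of 120 or 852 bases, had differences of -0.083 and -0.078, with adjusted p of 0.97. In all, 15 members of LPP3 were tested in Col-0 and 2 were called. In Kn-0, with a second intron of 1345 bases, the 58-base exon had 0.522, 0.611 and 0.570 in mock and 0.376, 0.348 and 0.431 under ABA, a fall of 0.183 (adjusted p = 0.032). The Col-0 call of the 58-base exon was lost without mock library 3 or ABA library 1 (adjusted p = 0.12 and 0.063), and that of the 52-base exon also without ABA library 2 (0.23, 0.15 and 0.073). The Kn-0 call was lost without mock library 2 or 3 or ABA library 1 or 2, at 0.2 to 0.34. The LPP3 transcript as a whole did not pass in either accession in the authors' deposited table, with log2 changes of -0.11 and -0.09.

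ENDO5, an endonuclease gene, was called in Kn-0 with the smallest adjusted p of the exons called for ABA. A Col-0 value was not analysed here. Its 184-base exon had levels of 0.279, 0.281 and 0.297 in mock and 0.156, 0.137 and 0.135 under ABA. The fall of 0.143 had an adjusted p of 3.9e-14 and held with each library left out, between 0.137 and 0.150 in size. Reads that join the exon went from 263, 271 and 272 to 131, 107 and 109, while skipping reads were 339, 346 and 322 in mock and 355, 338 and 349 under ABA. A 164-base form of the exon fell by 0.085 with an adjusted p of 1e-07, under the difference asked for. The whole transcript fell by 0.43 on the log2 scale in the authors' deposited table (adjusted p = 2.9e-08).

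**Figure D2:**
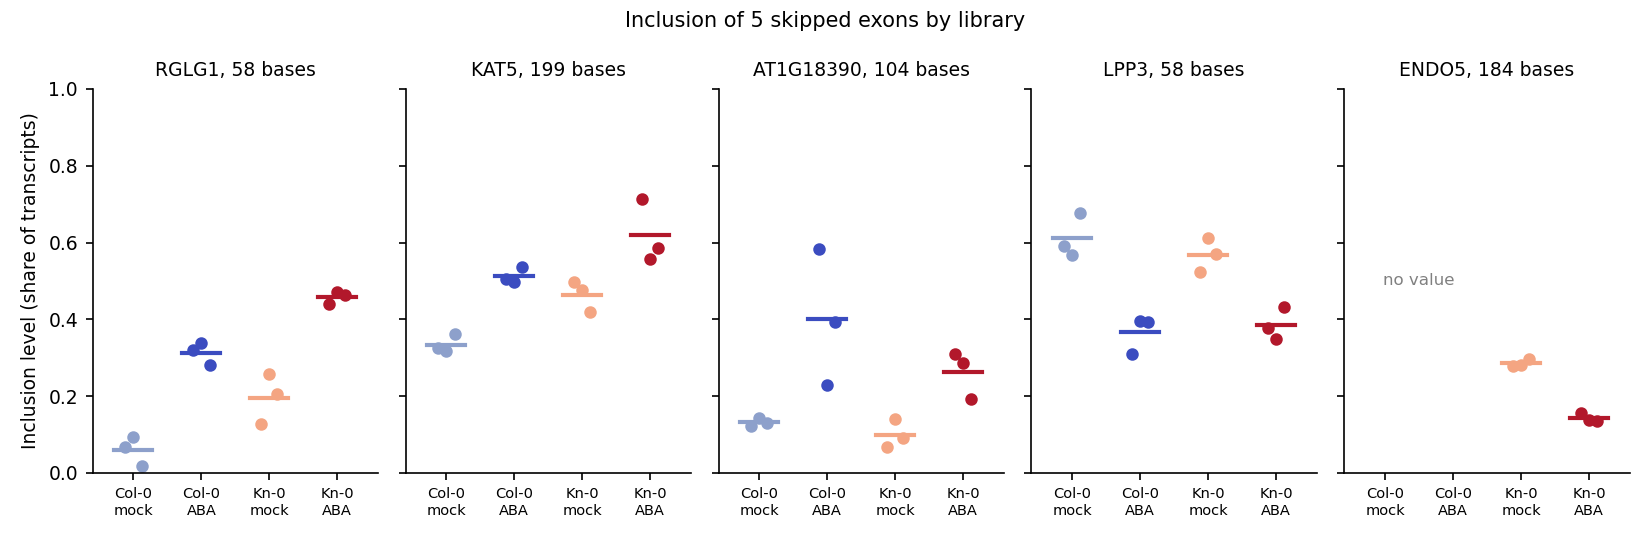
Inclusion level of 5 exons in each library (points) with the group mean (line), for Col-0 mock and ABA in blue and Kn-0 mock and ABA in red. Points of the ABA and mock groups do not overlap in any panel, and the widest spread is that of AT1G18390 in Col-0 under ABA, at 0.228 to 0.583. ENDO5 is shown for Kn-0 only, because a Col-0 value was not analysed here.

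Of the 7 exons called in Col-0, 4 were placed in the 5′ untranslated leader, 2 at the start codon and 1 in coding sequence, while the tested exons numbered 464, 154 and 1159 in these places. Among the 4, the 322-base KAT5 exon was placed by the annotated transcript that skips it. It spans the 107-base and 199-base exons that were placed at the start codon. The called exons are not independent. The KAT5 exons, in the leader and at the start codon, share skipping reads, as do the LPP3 exons of the leader. Over all skipped exons tested in Col-0, 0.22% were called, and a difference between places was not tested. Tested exons of the leader had a median inclusion level of 0.294 and those of coding sequence 0.86. No call fell among the 372 tested Col-0 exons of 76 to 100 bases. Lengths of 52 to 75 bases gave 3 of 461, the RGLG1 exon and the LPP3 exons that share skipping reads.

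The authors' own rMATS test gave more calls and reached exons of lower coverage. With FDR below 0.05, the same limit of 0.1 on the difference and 10 or more junction reads on average, the authors' deposited table called 20 exons of 14 genes in Col-0, 9 higher and 11 lower, beside 0.198% of all 17197 skipped exons. For Kn-0 the authors' deposited table called 15 exons of 11 genes, 7 higher and 8 lower, beside 0.127% of 18846. All 7 exons called above in Col-0 were among the 20, and 5 of the 6 in Kn-0 were among the 15. The 134-base exon of AT1G78780 had levels of 0.947, 1.0 and 0.842 in Col-0 mock and 0.568, 0.455 and 0.707 under ABA, a difference of -0.353 with an FDR of 0.0012 in the authors' deposited table. The groups did not overlap, yet skipping reads were only 1, 0 and 3 in mock and 8, 15 and 6 under ABA, and the moderated test gave an adjusted p of 0.31. Its Kn-0 counterpart had a difference of -0.266, with an FDR of 0.017 in the authors' deposited table and an adjusted p of 0.22.

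Further exons that the authors' test called and the moderated test did not lay in several other genes. In Col-0 the 217-base exon of AT2G42247, a long noncoding RNA, had 0.843 ± 0.195 in mock and 0.374 ± 0.196 under ABA, with too few reads for the moderated test, while its Kn-0 counterpart had 0.629 ± 0.121 and 0.781 ± 0.189. A 152-base exon in the 3′ untranslated region of AT2G45300 had 0.944 ± 0.096 and 0.611 ± 0.341, so the spread under ABA was as wide as the difference. In Kn-0 the 73-base leader exon of DREB2C, a transcription factor of the drought-responsive DREB family, had levels of 0.062, 0.059 and 0.000 in mock and 0.090, 0.355 and 0.219 under ABA, and in Col-0 its means were 0.045 and 0.035. A 397-base exon of APC11, a subunit of the anaphase-promoting complex, had 0.521 ± 0.136 and 0.939 ± 0.105 in Kn-0.

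To compare the accessions, exons were matched by gene, strand, exon length and the lengths of both flanking introns, since the tables use different coordinates. This matched 3235 of the exons, and 859 in 495 genes had the coverage and variation for a test. No exon was called for a difference between accessions in the response to ABA (0 of 859, beside 0.0% of 1647 matched skipped exons). Unadjusted p was under 0.05 for 50 of them, the smallest adjusted p was 0.398, and limma on logits, the wider spread and matching by length alone also called 0. The KAT5 rise of the 199-base exon differed by -0.023 between accessions (Kn-0 minus Col-0; adjusted p = 0.95) and that of AT1G18390 by -0.105 (adjusted p = 0.98). RGLG1 and LPP3 had no match with equal introns, so their responses were not compared by a test. Across the 859 exons, which share libraries and in part reads, the mean differences under ABA in Col-0 and Kn-0 had r = 0.006, while mock inclusion levels had r = 0.986. The median absolute difference was 0.016 under ABA in Col-0, 0.0183 in Kn-0 and 0.025 between accessions in mock.

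**Figure D3:**
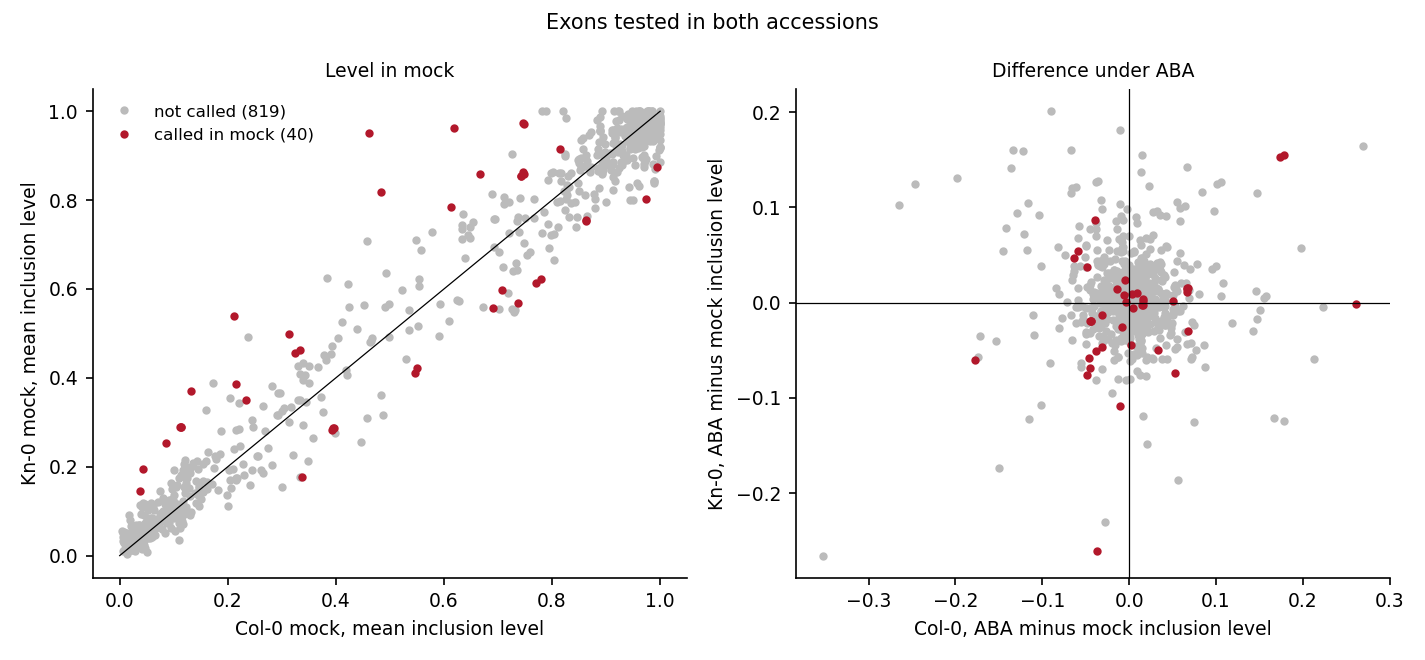
Left: mean inclusion level in Kn-0 mock against Col-0 mock for the 859 exons tested in both accessions, with the 40 called in mock in red and the line of equality. Right: ABA minus mock inclusion level in Kn-0 against Col-0 for the same exons. The levels follow the line (r = 0.986) and the differences do not follow each other (r = 0.006).

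More exons were called between the accessions than for ABA in either one. In mock, 40 of 859 exons in 25 genes were called, 25 higher in Kn-0 and 15 lower, beside 4.37% of all 1647 matched exons. Under ABA 39 in 26 genes were called, 26 higher and 13 lower, beside 4.19%. The 20 exons of 12 genes called under both treatments all had the same direction in both. Of the 40, 21 lay in coding sequence and 13 in the 5′ leader, against 590 and 167 of the 859. Some of the 40 share reads within a gene, and a difference between places was not tested. The 2 tables use different coordinates, and the accession and the genome its table was made on cannot be told apart.

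PAT1, a GRAS-family protein of phytochrome A signalling, had the smallest adjusted p of the exons named here. Its 80-base leader exon, with the splice sites shown above, had levels of 0.484, 0.488 and 0.479 in Col-0 mock and 0.813, 0.811 and 0.833 in Kn-0 mock. Kn-0 was higher by 0.335 (adjusted p = 3.7e-31) and the groups were far apart, and it was higher by 0.252 under ABA (adjusted p = 1.9e-19). UGT80B1, a sterol glucosyltransferase of seed coat and membrane lipids, had 3 leader exons of 101, 107 and 112 bases that share ends and reads. The 101-base exon had 0.618 ± 0.054 in Col-0 and 0.963 ± 0.033 in Kn-0 (SD, n = 3), a difference of 0.345 (adjusted p = 6e-07), and the other exons differed by 0.222 and 0.228. PnsB4, a subunit of the chloroplast NADH dehydrogenase-like complex, differed at a 173-base exon by 0.238 with an adjusted p of 0.048. The exon lies between the start and stop codons, but no annotated transcript holds either arrangement of its junctions. Only 4, 5 and 10 reads joined it in Col-0 mock and 8, 6 and 7 in Kn-0 mock. The 85-base exon of AT4G15563 had the largest difference, 0.489, from levels of 0.442, 0.732 and 0.212 in Col-0 that were far apart, and 0.965, 0.927 and 0.961 in Kn-0.

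Among the exons included less in Kn-0, the 250-base exon of AT1G58060 had 0.974, 1.0 and 0.945 in Col-0 mock and 0.796, 0.868 and 0.744 in Kn-0 mock, lower by 0.170 (adjusted p = 0.019). This exon too lies between the start and stop codons without an annotated transcript that holds either arrangement of its junctions. NTH2, a DNA repair endonuclease III homologue, was lower by 0.158 at its 119-base exon and by 0.157 at its 137-base exon. AT4G24740, a LAMMER-type kinase of SR proteins named FC2 in the gene table, was lower by 0.129 at a 184-base leader exon in mock (adjusted p = 8e-04). Its Col-0 mock levels of 0.552, 0.548 and 0.552 did not overlap the Kn-0 levels of 0.486, 0.390 and 0.388. Under ABA the difference was -0.019 (adjusted p = 0.78), and the change in the difference had an unadjusted p of 0.007 and an adjusted p of 0.91.

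**Figure D4:**
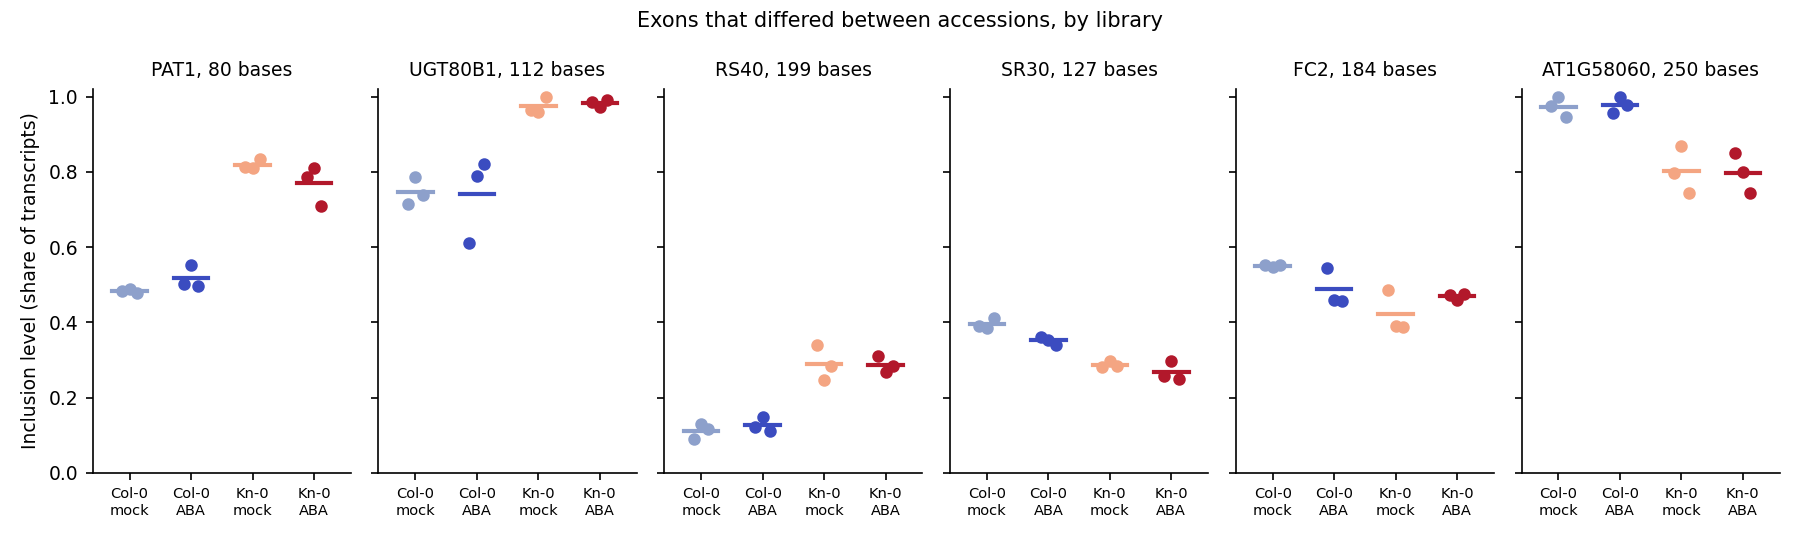
Inclusion level of 6 exons in each library (points) with the group mean (line), Col-0 in blue and Kn-0 in red. PAT1, UGT80B1 and RS40 are higher in Kn-0 under both treatments, SR30 and AT1G58060 are lower, and FC2 is lower in mock, with a difference of -0.019 under ABA.

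The SR splicing factors, a family known for exons of this kind, had called exons between accessions and none for ABA. Of 20 SR genes, 12 had such exons in Col-0, 59 in all, and 29 exons of 11 genes were tested, with a median inclusion level of 0.122. None was called for ABA in either accession by the moderated test or in the authors' deposited table, with 3 of 29 in Col-0 and 3 of 25 in Kn-0 at an unadjusted p under 0.05, where 5.35% and 6.74% of all tested skipped exons were. In Col-0 those were the SR30 exons of 112, 122 and 127 bases, which share reads. The 127-base exon shown above had 0.389, 0.385 and 0.412 in mock and 0.362, 0.353 and 0.340 under ABA, without overlap, a difference of -0.044 with an adjusted p of 0.91. Of 20 SR exons matched between accessions, 7 in SR30 and RS40 were called in mock, where 4.37% of all matched exons were, and 4 were called under ABA, where 4.19% were. Within each of these genes the called exons share the same skipping reads. They are therefore not independent, and the share of SR exons called was not tested against that of all exons. SR30 had 0.281, 0.297 and 0.284 in Kn-0 mock, lower by 0.108 (adjusted p = 4.8e-05), and under ABA the difference was -0.084 (adjusted p = 0.00013), short of the 0.1 asked for. The RS40 exon of 199 bases had 0.091, 0.129 and 0.117 in Col-0 mock and 0.339, 0.247 and 0.283 in Kn-0 mock. Kn-0 was higher by 0.177 (adjusted p = 4e-20) and by 0.160 under ABA (adjusted p = 2e-13). The RS40 exons of 412 and 499 bases differed by 0.177 each, and the 257-base exon at the start codon by 0.170. All share skipping reads with the 199-base exon. So does the 371-base exon, which differed by 0.055 in mock, short of the 0.1 asked for. In the authors' deposited table the ABA change of RS40 as a whole was -0.00 on the log2 scale for Col-0, 0.00 for Kn-0, while SR30 rose by 0.51 for Col-0, by 0.46 for Kn-0.

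Other lists had tested members without a call for ABA by the moderated test or in the authors' deposited table. The 18 clock genes had 26 tested exons of 7 genes in Col-0 and 23 of 6 genes in Kn-0, with 2 and 6 at an unadjusted p under 0.05, beside the same 5.35% and 6.74%. LNK1, a clock gene coactivator, accounted for the 2 in Col-0: its 130-base exon had 0.451, 0.486 and 0.521 in mock and 0.545, 0.613 and 0.538 under ABA, a difference of 0.079 with an adjusted p of 0.39. In Kn-0 the same exon had 0.453 ± 0.048 and 0.506 ± 0.022 (SD, n = 3), and the groups overlapped. Of 19 core ABA genes only 2 had members, and ABF2, a transcription factor of ABA-responsive genes, was the one tested: its 142-base exon had 0.088 in mock and 0.086 under ABA for Col-0, against 0.073 and 0.093 for Kn-0, where the groups did not overlap and the adjusted p was 0.9. In the authors' deposited table of whole transcripts, 15 of these 19 genes rose with ABA in Col-0, where 19.8% of all genes tested did, against 16 for Kn-0, where 22.9% did. Among 15 other splicing and RNA-binding genes, 14 exons were tested for Col-0, 17 for Kn-0, with 0 and 1 at an unadjusted p under 0.05 and differences from -0.028 to 0.029. The transcription factor TFIIIA, from a list of 10 genes known for cassette exons that shift the frame, had 0.798 and 0.822 at its 146-base exon for Col-0, with 0.721 and 0.756 for Kn-0. That list had 15 tested exons in Col-0, 0 of them at an unadjusted p under 0.05, and 22 in Kn-0, with 2. Of 4 genes of nonsense-mediated decay, UPF3 had 1 tested exon, of 107 bases, with means of 0.966 (mock) and 0.970 (ABA) for Col-0, against 0.971 and 0.973 for Kn-0.

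Taken over all 859 exons, inclusion did not shift detectably with ABA. Pooled over reads it was 40.21%, 40.44% and 40.79% in Col-0 mock and 39.40%, 40.65% and 40.81% under ABA, and 42.43%, 42.74% and 42.92% in Kn-0 mock against 42.64%, 43.32% and 42.05%. The mean difference was -0.113 percentage points (two-sided exact permutation test within accessions, p = 0.705 over 400 arrangements). The median exon per library had a difference of 0.95 points (exact permutation p = 0.365). Exons of length divisible by 3 had a pooled difference of 1.035 points (exact permutation p = 0.03), and the difference between the 2 kinds of exon was not tested. Within 1 accession the 20 arrangements cannot give a p below 0.1, and the pooled differences were -0.198 points for Col-0, against -0.027 for Kn-0. With no filter on the inclusion level, over matched exons with enough reads for a test, the pooled difference turned to 1.308 points. Its exact permutation p was 0.005, the smallest the design can give. Under the same setting the difference of the median exon was -0.017 points. Pooled values give more weight to exons with more reads, and so also depend on transcript levels. Whether the pooled differences reflect splicing or transcript levels was not tested.

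**Figure D5:**
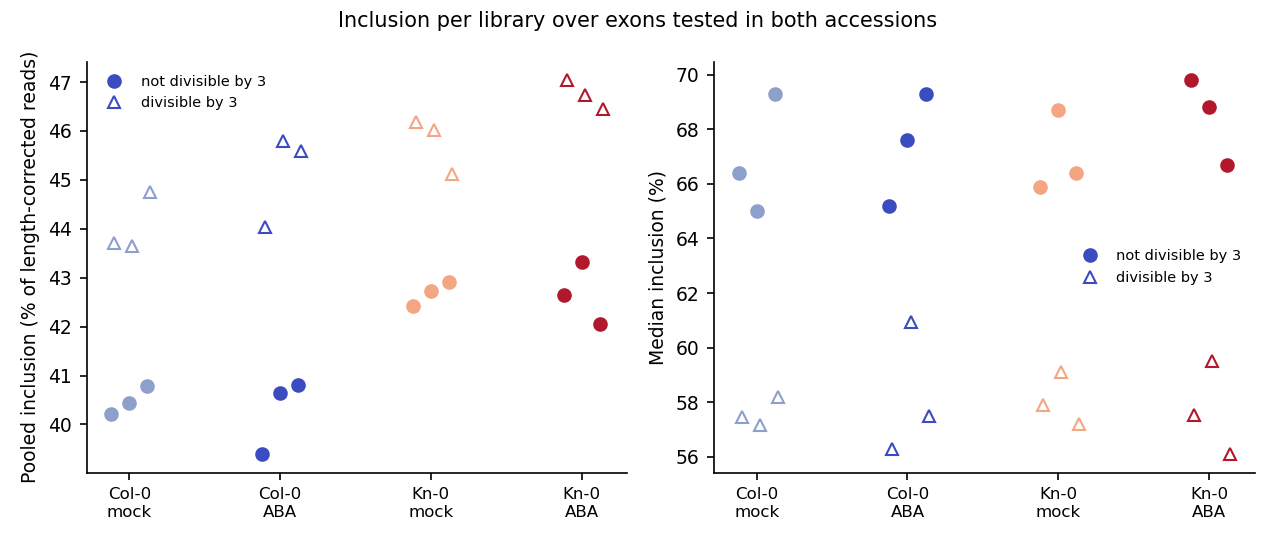
Pooled (left) and median (right) inclusion in percent for each library, over exons tested in both accessions, with lengths not divisible by 3 as filled circles and divisible by 3 as open triangles. Both axes start above 0. Circles of the ABA and mock groups overlap within each accession, and pooled values span 39.40% to 40.81% for Col-0 libraries, with Kn-0 spanning 42.05% to 43.32%.

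The transcripts of genes with a tested exon were also compared with those of all genes. By the authors' deposited table, of the genes with a tested exon 239 of 953 such genes rose and 117 fell in Col-0 (37.4%), beside 38.3% of all 23687 genes tested, of which 4700 rose (19.8%) and 4368 fell (18.4%). The authors' deposited table gave 266 higher and 181 lower of 958 in Kn-0 (46.7%), beside 44.4% of 23710, of which 5439 were higher (22.9%) and 5089 lower (21.5%). Fewer cells with a transcript and less of it per cell cannot be told apart in RNA from whole seedlings. At the length limit, the 146 Col-0 exons of 52 bases had a median inclusion level of 0.978 and the 121 of 51 bases, just outside, had 0.994.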

How the data were processed

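Polyadenylated RNA of 12 libraries was measured. STAR, featureCounts, DESeq2 and TAIR10 are named for the authors' steps, per the submitters' processing notes, without version or role. The authors deposited 1 rMATS junction table per accession (rMATS is named by the files, its version is not given in the sources used here), with inclusion and skipping reads and inclusion levels of 3 libraries joined in each cell. The deposited inclusion difference, a score, is mock minus ABA, and is given here as ABA minus mock. Per the file headers, the authors' gene tables hold a mean signal (normalized counts), log2 fold changes with standard errors, a Wald score and p-values. In the Kn-0 gene table column names stand 1 place off and were moved back.

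Commas between reads were lost for 69.1% of the Col-0 exons described and 74.4% of the Kn-0 exons. Digits were split to give back each deposited inclusion level to 0.0005, which failed for 11 exons in each accession. For 3745 Col-0 and 4302 Kn-0 exons more than 1 split did so. The split with the most even reads between libraries was then kept, which assumes libraries of similar depth. Tables had 1308 and 1285 entries with a missing level and 0 repeated entries. Kn-0 coordinates shared no exon with Col-0, so no sequence was read for Kn-0. Reading frames were followed on RefSeq TAIR10.1 transcripts. The sequence of 1 exon is not reported here.

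The deposited cells are not themselves a count table, so edgeR, the first choice of test, was not run on the reads recovered from them. In its place stood a two-sided quasi-binomial comparison of logits of pooled reads (0.5 added), with the dispersion moderated over all skipped exons with limma 3.58.1 in R 4.3.3 (floor 1) and Benjamini-Hochberg adjustment over all exons tested in a table. The moderated dispersion, 1.36 to 3.38 in Col-0 and 1.26 to 2.08 in Kn-0, depended on depth alone, so 2 tests that use more of each exon's own spread were added after seeing the data, as was the matching between accessions. Test scripts were tested on simulated data. No replicates were duplicates: their chi-square, divided by its degrees of freedom, ran from 2.73 to 8.51. P-values measure only the spread between these libraries, which may be technical.

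Exons are named when called, up to 12 per accession and direction, when called between accessions in mock, up to 8 per direction, when in a listed gene and tested, or when called by the authors' FDR, up to 6 per accession and direction. ENDO5's 164-base form and the other LPP3 junctions were chosen after their values were seen. The members and lists were chosen with earlier results of these data known. Retained introns and alternative splice sites were not used here. Python 3.11.15, pandas 2.3.3, numpy 2.4.6 and matplotlib 3.10.9 were used.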

Additional observations from a re-analysis of the deposited data

How the results depend on the processing

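Junction depth and 3 libraries per group limit these calls, and neighbouring exons share reads. A difference of at least 0.2 left 4 exons called for ABA in Col-0, with 1 left for Kn-0, and the authors' rMATS FDR gave 20 and 15. Leaving out 1 library gave 4 to 6 in Col-0 (4, with 0 lower, without the first ABA library) and 2 to 6 in Kn-0 (2 without the first ABA library). The response calls between accessions were 0 under each alternative run. For Kn-0 against Col-0, a difference of 0.05 gave 86 in mock and 65 under ABA, a difference of 0.2 gave 7 and 14, and matching by gene and exon length gave 72 and 64. Leaving out 1 library gave 32 to 40 and 26 to 39. The pooled difference turned to 1.308 points (exact permutation p = 0.005) with no filter on inclusion level, and the median difference to -0.017 points (exact permutation p = 1). Leaving out 1 library gave -0.276 to 0.109 points for the pooled and 0.467 to 1.55 for the median difference, the pooled one turning to 0.109 without the first Col-0 ABA library and to 0.043 without the third Kn-0 ABA library. The cause was not tested. In the other 95 recomputed values, counts stayed within 1.5 times and library values kept their direction and their side of 0.05, but the split of calls turned or levelled without the inclusion filter, to 5 higher and 5 lower in Col-0 and to 4 and 5 in Kn-0, and became 2 and 2 in Kn-0 with the larger dispersion. Of the repeated tests of named exons 24 lost the call and 80 kept it. No paired analysis was possible because the joined cells list 3 libraries per group without replicate numbers. The tests with edgeR and DESeq2 and the replicate block were not run, and choosing the entry with the most reads changed nothing because 0 entries were repeated.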
